A study of Homo sapiens with 16 samples.

Results

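Transcript levels of GPC3 and of 9 genes commonly listed as Wnt/beta-catenin targets (LGR5, AXIN2, NKD1, TBX3, GLUL, DKK1, LEF1, TCF7 and RNF43) were followed in Sorafenib-resistant hepatocellular carcinoma (HCC) cells. The genes were taken by name, with earlier results of these data known, and these 10 are part of 26258 genes in the deposited table. Their counts beside the share of all genes are therefore a description. The established human HCC lines Huh7 and Hep3B were each sequenced as parental cells, as cells labeled DMSO, as IR cells and as CR cells, with 2 replicates per group and 16 libraries in all. IR cells were derived in increasing Sorafenib concentrations and CR cells in a constantly high concentration, and Sorafenib is a multikinase inhibitor used against advanced HCC. The labels give 7 μM Sorafenib for IR and CR cells and call parental and DMSO cells untreated, so resistance and ongoing exposure to the drug cannot be told apart. Each resistant population is 1 derived line, and the history of the DMSO cells is not given in the sources used here. No genetic change is named in the labels for any group.

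In canonical Wnt signaling, a secreted Wnt ligand binds a Frizzled receptor and an LRP co-receptor, the destruction complex built on AXIN and APC is stalled, and beta-catenin accumulates and activates genes together with TCF/LEF factors. Several of the activated genes encode inhibitors of the same pathway and form a negative feedback. In the liver the pathway maintains the pericentral hepatocytes, which express GLUL, AXIN2, LGR5 and TBX3, and it is often activated in HCC. GPC3 is a heparan sulfate proteoglycan of the cell surface that is abundant in fetal liver and in many HCCs.

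All 10 genes passed the filter of at least 1 CPM (the reads of a gene scaled to a fixed library total) in at least 2 libraries, which left 15019 genes, and NKD1 and LEF1 passed it through the Hep3B libraries alone. A gene was called changed at an adjusted p under 0.05 (limma, Benjamini-Hochberg over all genes tested) together with a log2 fold change beyond 0.58 in either direction. Log2 fold changes and their standard errors (SE) are on the log2(CPM + 1) scale, which understates the changes of genes at low levels, and fold differences stated without "log2" are ratios of mean CPM. Values for the 4 resistant lines are given with Huh7 before Hep3B and IR before CR, unless stated otherwise. Library totals lay between 46613302 and 76860251 reads. Replicates of Huh7 DMSO and Huh7-IR cells were less alike than the others, with an SD of the replicate difference over genes of 0.571 and 0.566 on the log2 scale, against 0.236 to 0.310 in the other groups. Summed CPM of 10 hepatocyte markers, ALB and APOB among them, lay between 10710.4 and 27762 in parental and DMSO libraries of Huh7 and between 124 and 2810 in the resistant ones. The corresponding ranges in Hep3B were 17152 to 36145 and 1325 to 10347. In the resistant lines 8, 7, 3 and 6 of the 10 hepatocyte markers were lower than in parental cells, and 1 was higher in Hep3B-IR cells. Sums of 5 endothelial and of 5 leukocyte markers were at most 6.79 CPM in any library, and sums of 6 fibroblast markers were 283 to 673 CPM in Huh7 and 23.3 to 87.0 in Hep3B. The fibroblast marker THY1 was at or near 0 in every library, and 3, 3, 1 and 1 of the 4 fibroblast markers tested were higher and 1, 1, 1 and 0 lower in the resistant lines. In Huh7-IR and Huh7-CR cells the 1 endothelial marker tested was lower, as were 2 and 1 of the 2 leukocyte markers tested.

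Against parental cells, the 10 genes did not move as a group. GPC3 and DKK1 were lower in all 4 resistant lines, while AXIN2 was higher in both resistant Huh7 lines and lower in both resistant Hep3B lines. In Huh7-IR cells 1 gene was higher and 4 were lower, where 31.1% of all genes tested were higher and 17.8% lower. Huh7-CR cells also had 1 gene higher and 4 lower, against 20.9% and 13.6% of all genes. In Hep3B-IR cells 1 was higher and 7 were lower, with 15.7% and 11.4% among all genes. For Hep3B-CR cells the counts were 1 and 6, with 20.0% and 12.3% among all genes. The higher gene in both Hep3B lines was LEF1, and NKD1 was among the lower ones in both. Both genes passed the filter through Hep3B libraries alone, so their calls do not count beside these shares. In Huh7, where both lay near 0, neither was called. The median log2 fold change of the 10 genes was -0.24, -0.10, -0.95 and -0.75, and that of all genes was 0.19, 0.07, 0.06 and 0.11. Scaling with TMM factors moved the median of all genes in Huh7-IR cells by -0.15, and the share of higher genes among those called from 63.6% to 52.8%, but changed the direction of none of the 10 genes there. Counts in Hep3B depended on single libraries. Without parental replicate 2 the called genes fell from 8 to 4 in Hep3B-IR and from 7 to 4 in Hep3B-CR cells, and without Hep3B-CR replicate 2 the latter count was also 4.

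**Figure D1:**
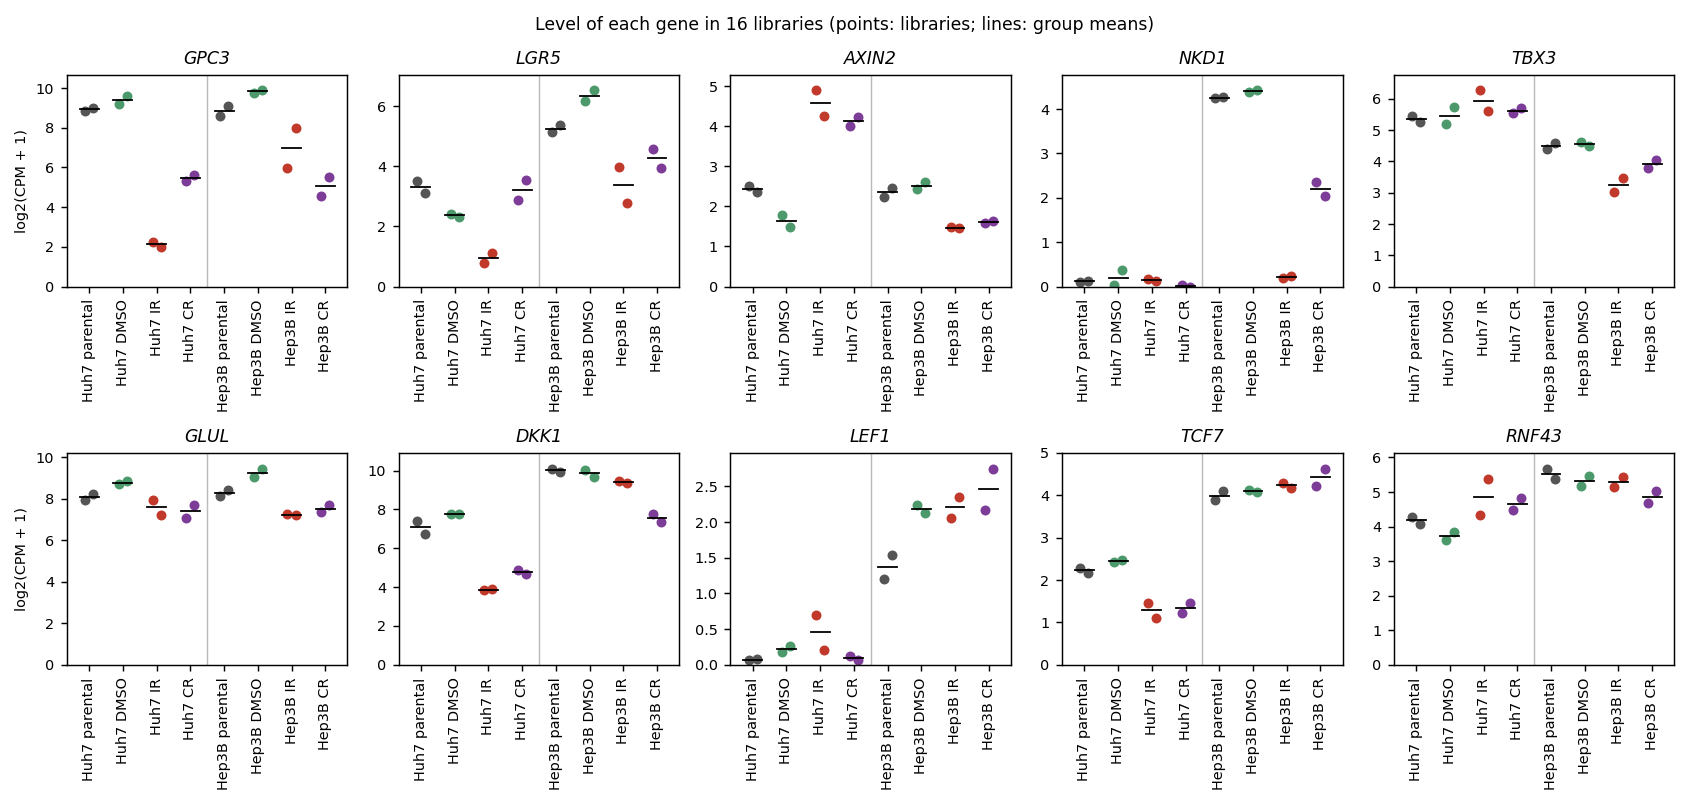
Level of each of the 10 genes in the 16 libraries, on the log2(CPM + 1) axis that starts at 0, with points for libraries and lines for group means. GPC3 and DKK1 fall in every resistant group, AXIN2 rises in IR and CR cells of Huh7 only, and NKD1 and LEF1 stay near 0 in all Huh7 libraries.

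GPC3, the heparan sulfate proteoglycan, lies on chromosome X (132669773 to 133121127, minus strand, GRCh37). Its level was 460.0 and 513 CPM in Huh7 parental cells and 389.8 and 544 CPM in Hep3B parental cells. In resistant Huh7 cells it was 3.73 and 3.05 CPM in IR and 39.2 and 48.4 CPM in CR libraries. Both Huh7-IR libraries therefore held the lowest GPC3 levels of the series, at 225 and 142 reads, and no resistant Huh7 library overlapped a parental one. In resistant Hep3B cells GPC3 was 61.1 and 249 CPM in IR and 22.5 and 45.2 CPM in CR libraries, again without overlap with the parental libraries. The 2 Hep3B-IR libraries lay far apart from each other.

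Relative to parental cells, mean GPC3 was 144-fold and 11.1-fold lower in IR and CR cells of Huh7, and 3.01-fold and 13.8-fold lower in those of Hep3B. The log2 fold changes were -6.80, -3.45, -1.89 and -3.81 (SE 0.49 each), with adjusted p of 4.88e-07, 0.00016, 0.0108 and 0.000105 (limma). The change in Hep3B-IR cells lost its call without IR replicate 1, at -0.88, and without parental replicate 2, at -1.65, and against DMSO cells it was -2.87. In order of mean level, the groups ran from Hep3B DMSO (912 CPM) over Huh7 DMSO, Huh7 parental, Hep3B parental, Hep3B-IR, Huh7-CR and Hep3B-CR to Huh7-IR (3.39 CPM), and the replicates of neighbors overlapped between the parental groups and between Huh7-CR and Hep3B-CR. In these bulk samples, fewer cells expressing a gene and less RNA per cell cannot be told apart.

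Hepatocyte markers moved with GPC3. Huh7-IR libraries had summed marker levels of 124 and 492 CPM, the lowest of the series, and Huh7-CR libraries had 1380 and 2810 CPM. Within Hep3B-IR, the replicate with 61.1 CPM of GPC3 had 3587 CPM of hepatocyte markers and the replicate with 249 CPM had 10347. The part of the lower marker levels in the change of GPC3 was not tested.

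**Figure D2:**
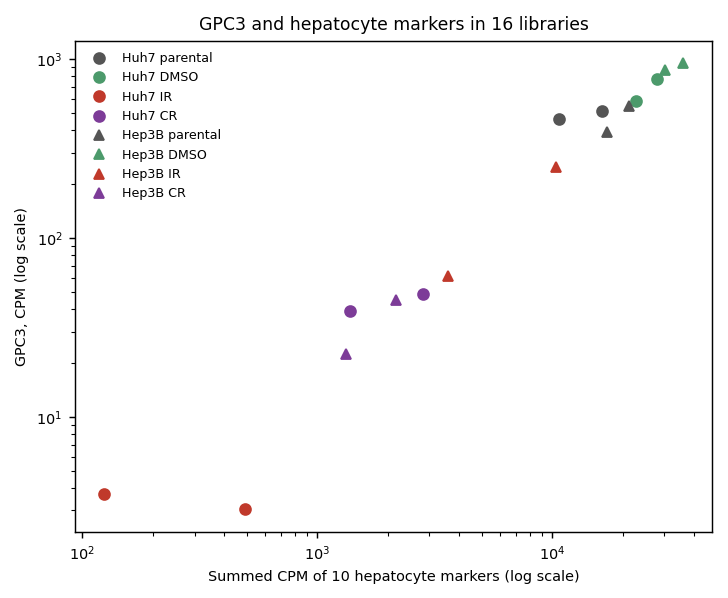
GPC3 level against the summed level of 10 hepatocyte markers, both in CPM on log scales, with circles for the Huh7 and triangles for the Hep3B libraries. The 2 Huh7-IR libraries sit lowest on both axes, and parental and DMSO libraries of both lines hold at least 10710.4 CPM of markers and 389.8 CPM of GPC3.

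Over the 8 group means of log2(CPM + 1), the genes most like GPC3 were H3C2 (Pearson r 0.994), a histone gene of a multicopy family whose reads may be split among copies, TMEM97 (0.990), a regulator of cholesterol transport, ATP5MG (0.986), a subunit of the mitochondrial ATP synthase, SERPIND1 (0.984), the plasma protease inhibitor heparin cofactor, and SNRPG (0.983), a core spliceosome protein. The 8 points share lines and parental controls, so the correlation is a description. SERPIND1 had mean levels of 117 CPM in Huh7 parental and 0.299 CPM in Huh7-IR cells, whereas ATP5MG only went from 127 to 93.4 CPM. Among the other 9 genes of the list, r with GPC3 was highest for DKK1 (0.76) and GLUL (0.74) and lowest for AXIN2 (-0.61). Among all genes compared with GPC3, these values lay at percentiles 92.8, 91.8 and 23.2.

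AXIN2 encodes a scaffold of the destruction complex and is widely used as a readout of beta-catenin activity. It lies on chromosome 17 (63524681 to 63557766, minus strand), and 25.3% of its exon bases are shared with another annotated gene on the same strand, so some reads could belong to that gene. In Huh7 its level was 4.67 and 4.14 CPM in parental, 28.7 and 18.0 CPM in IR and 15.1 and 17.7 CPM in CR libraries, and every resistant library exceeded every parental one. Hep3B had 3.69 and 4.53 CPM in parental, 4.36 and 5.06 CPM in DMSO, 1.79 and 1.73 CPM in IR and 1.99 and 2.11 CPM in CR libraries, and its resistant libraries were all below the parental ones. The 2 lines thus started at similar AXIN2 levels and moved in opposite directions.

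AXIN2 rose 5.31-fold in Huh7-IR and 3.73-fold in Huh7-CR cells, with log2 fold changes of 2.14 and 1.69 (SE 0.22, adjusted p 7.52e-06 and 8.19e-05, limma). In Hep3B it was 2.33-fold lower in IR and 2.00-fold lower in CR cells, at log2 fold changes of -0.88 and -0.74 (SE 0.22, adjusted p 0.00853 and 0.018, limma). The Hep3B decreases were less stable than the Huh7 increases. That in IR cells lost its call without parental replicate 2, at -0.76, and that in CR cells without CR replicate 1 (-0.71), CR replicate 2 (-0.77) or parental replicate 2 (-0.62). With 4 CPM added before the log both were under the minimum fold, at -0.49 and -0.42, and edgeR on the reads gave -1.29 and -1.12. DMSO libraries of Huh7 had 2.44 and 1.81 CPM, below the parental ones, and against these the log2 fold changes were 2.94 and 2.48.

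NKD1 encodes a feedback inhibitor that binds Dishevelled, and lies on chromosome 16 (50582307 to 50683160, plus strand). It was a gene of Hep3B, with 18.1 and 18.2 CPM in parental and 19.9 and 20.5 CPM in DMSO libraries. Hep3B-IR libraries had 0.134 and 0.171 CPM, which is 10 and 12 reads, and Hep3B-CR libraries had 4.08 and 3.10 CPM. Mean NKD1 was 119-fold lower in Hep3B-IR and 5.05-fold lower in Hep3B-CR cells, with log2 fold changes of -4.05 and -2.07 (SE 0.16, adjusted p 1.81e-08 and 2.53e-06, limma). All Huh7 libraries lay at or below 0.287 CPM, with at most 20 reads. Huh7-CR replicate 2 had 0 reads, which allows up to 3 reads for counting error alone, and no change of NKD1 was detectable in Huh7 at this depth.

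DKK1 encodes a secreted inhibitor that binds the LRP co-receptors, and it is itself induced by beta-catenin in several cell types. It lies on chromosome 10 (54074041 to 54077802, plus strand, GRCh37), and 10.2% of its exon bases lie opposite to the antisense gene PRKG1-AS1. RefSeq promoters had entries for 5 of the genes (GLUL, DKK1, LEF1, TCF7 and RNF43, with 8 start sites). Core letters bound by TCF/LEF factors were searched only as CTTTGAA or CTTTGAT, on both strands of the 250 bases before each start. Of these promoters, that of DKK1 alone held either form. Other forms of the core were not searched, so these promoters, the printed one included, may hold unmarked ones. The sequence is shown because DKK1 fell in all 4 resistant lines. It covers chr10:52314031-52314280 of GRCh38.p14 on the plus strand, with the matched letters, 95 to 89 bases before the start, in capitals.
DKK1: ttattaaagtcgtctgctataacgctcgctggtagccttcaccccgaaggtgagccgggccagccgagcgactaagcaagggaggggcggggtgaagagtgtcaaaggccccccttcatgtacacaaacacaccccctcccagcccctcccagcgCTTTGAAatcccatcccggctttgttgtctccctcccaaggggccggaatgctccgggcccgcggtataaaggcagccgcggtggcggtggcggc
The same letters occur in 5.94% of all 35116 promoters of this length, and the match is a description of the sequence only.

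DKK1 levels in Huh7 were 169.5 and 106 CPM in parental, 13.4 and 13.9 CPM in IR and 28.3 and 24.6 CPM in CR libraries. Hep3B parental cells were far higher, at 1102 and 964 CPM, with 698 and 666 CPM in IR and 215 and 164 CPM in CR libraries. All 8 resistant libraries lay below the parental libraries of their line. Mean DKK1 was 10.1-fold lower in Huh7-IR, 5.22-fold in Huh7-CR and 5.46-fold in Hep3B-CR cells, whereas the decrease in Hep3B-IR cells was 1.52-fold. In this order the changes on the log2 scale were -3.21, -2.31, -2.45 and -0.60 (SE 0.20), with adjusted p of 2.02e-07, 4.43e-06, 4.72e-06 and 0.0416 (limma). The change in Hep3B-IR cells was close to both thresholds and lost its call when any of its 4 libraries was left out, at -0.50 to -0.69, and it was -0.45 against DMSO cells.

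RNF43, on chromosome 17 (56431037 to 56494956, minus strand), encodes a ubiquitin ligase that removes Frizzled receptors from the cell surface. Of its exon bases, 68.4% are shared with another annotated gene on the same strand, which makes its reads uncertain. It was 18.4 and 15.9 CPM in Huh7 parental, 19.3 and 41.0 CPM in Huh7-IR and 21.3 and 27.5 CPM in Huh7-CR libraries, so all resistant libraries exceeded the parental ones. Libraries of Hep3B had 50.3 and 40.4 CPM in parental, 34.6 and 42.0 CPM in IR and 24.9 and 32.0 CPM in CR libraries. None of the 4 changes passed the thresholds. The log2 fold changes were 0.69, 0.48, -0.24 and -0.66 (SE 0.29), with adjusted p of 0.0569, 0.207, 0.584 and 0.0891 (limma). Huh7 DMSO libraries had 11.3 and 13.5 CPM, and against these both Huh7 changes passed, at 1.13 and 0.92. Without Huh7-IR replicate 1 the change over parental cells was 1.21 and passed as well.

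LGR5, on chromosome 12 (71833578 to 71980090, plus strand), encodes the R-spondin receptor that marks stem cells of several epithelia. It was 10.5 and 7.63 CPM in Huh7 parental, 0.729 and 1.16 CPM in Huh7-IR and 6.32 and 10.6 CPM in Huh7-CR libraries. Both IR libraries of Huh7 lay far below the parental range, CR replicate 1 just below it and CR replicate 2 above it, and the DMSO libraries, at 4.36 and 3.99 CPM, were also below it. The Hep3B levels were 34.1 and 40.9 CPM in parental, 14.9 and 5.94 CPM in IR and 23.1 and 14.4 CPM in CR libraries, and all 4 resistant libraries lay below the parental range. The decrease was 9.63-fold in Huh7-IR and 3.60-fold in Hep3B-IR cells, with log2 fold changes of -2.37 and -1.87 (SE 0.36, adjusted p 0.000165 and 0.00206, limma).
The value for Hep3B-CR cells, -0.99 (adjusted p 0.0479, limma), passed narrowly and lost its call without CR replicate 2 (-0.67), parental replicate 1 (-1.12) or parental replicate 2 (-0.87), and for Huh7-CR cells it was -0.11 (adjusted p 0.845, limma). Against DMSO cells, the log2 fold changes of LGR5 were -1.42 in IR cells of Huh7, and -2.97 and -2.09 in IR and CR cells of Hep3B. These passed the thresholds. In CR cells of Huh7 the value against DMSO cells was in the other direction, at 0.83, and did not pass (adjusted p 0.0852, limma).

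LEF1 and TCF7 encode DNA-binding partners of beta-catenin, and TBX3 encodes a T-box repressor that is a beta-catenin target in liver tumors. LEF1 (chromosome 4, 108968701 to 109090112, minus strand) stayed at or below 0.630 CPM in Huh7, with 3 to 38 reads per library. There edgeR and DESeq2 on the reads called it higher in IR cells (2.78 and 2.81), as did limma without IR replicate 2 (0.64), while the value over all libraries was 0.38 (adjusted p 0.151, limma). Hep3B had LEF1 at 1.31 and 1.90 CPM in parental, 3.16 and 4.12 CPM in IR and 3.50 and 5.73 CPM in CR libraries. The resistant Hep3B libraries exceeded the parental ones, and so did the DMSO libraries, at 3.71 and 3.39 CPM. LEF1 was thus higher than in parental cells, at log2 fold changes of 0.84 and 1.09 (SE 0.22, adjusted p 0.0118 and 0.00214, limma), but not than in DMSO cells, where the values were 0.02 and 0.28. In IR cells the call was also lost without IR replicate 2 (0.69), without parental replicate 1 (0.67) and with edgeR and DESeq2 on the reads (1.12 and 1.10).

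TCF7 (chromosome 5, 133450372 to 133487556, plus strand) changed in Huh7. It was 3.90 and 3.52 CPM in Huh7 parental, 1.76 and 1.16 CPM in Huh7-IR and 1.33 and 1.77 CPM in Huh7-CR libraries, without overlap. This was a 2.55-fold and a 2.40-fold decrease, with log2 fold changes of -0.95 and -0.89 (SE 0.20, adjusted p 0.00131 and 0.00324, limma). With 4 CPM added before the log these were -0.50 and -0.48 and lost their calls, and edgeR on the reads gave -1.54 and -1.35. DMSO libraries, at 4.33 and 4.52 CPM, were above the parental ones. Hep3B libraries held 13.8 and 16.1 CPM in parental, 16.4 and 15.8 CPM in DMSO, 18.7 and 17.0 CPM in IR and 17.7 and 23.8 CPM in CR cells, with log2 fold changes of 0.24 and 0.44 that did not pass the thresholds.

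TBX3 (chromosome 12, 115108060 to 115121980, minus strand) was 20.0 and 23.4 CPM in Hep3B parental, 23.5 and 21.6 CPM in DMSO, 7.12 and 9.99 CPM in Hep3B-IR and 12.9 and 15.5 CPM in Hep3B-CR libraries. It fell 2.54-fold in Hep3B-IR cells, at a log2 fold change of -1.26 (SE 0.24, adjusted p 0.00195, limma), and the value in Hep3B-CR cells was -0.58 (adjusted p 0.0785, limma), which edgeR, DESeq2 and TMM factors moved past the thresholds (-0.73, -0.75 and -0.69). In Huh7 it was 43.2 and 37.2 CPM in parental, 35.7 and 52.4 CPM in DMSO, 76.7 and 47.7 CPM in IR and 45.8 and 51.5 CPM in CR libraries. The resistant Huh7 libraries all lay above the parental ones, but the log2 fold changes of 0.58 and 0.27 had adjusted p of 0.0585 and 0.413 (limma). Without Huh7-IR replicate 2 the former was 0.92 and passed the thresholds.

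GLUL encodes glutamine synthetase, the classical pericentral enzyme, and lies on chromosome 1 (182347233 to 182361341, minus strand). The annotation also holds 4 GLUL pseudogenes, which can take reads from it or lose them as non-unique. Its level was 243 and 302 CPM in Huh7 parental, 243 and 149.6 CPM in Huh7-IR and 134 and 209 CPM in Huh7-CR libraries. The same groups of Hep3B had 275 and 339 CPM in parental, 152 and 147 CPM in IR and 161 and 203 CPM in CR libraries. All 8 resistant libraries lay below the parental ones of their line, in Huh7-IR replicate 1 by less than 1 CPM. GLUL was lower in Hep3B-IR (2.05-fold, log2 fold change -1.02), Hep3B-CR (1.69-fold, -0.75) and Huh7-CR cells (1.59-fold, -0.69), with an SE of 0.25 and adjusted p of 0.00896, 0.0336 and 0.0457 (limma). In Huh7-IR cells the value was -0.51 (adjusted p 0.106, limma), and it passed the thresholds without IR replicate 1 (-0.85), with edgeR (-0.69), with DESeq2 and TMM factors (-0.70 each) and against DMSO cells (-1.19). The other values against DMSO cells were larger too, at -1.37 in CR cells of Huh7, and at -2.01 and -1.74 in IR and CR cells of Hep3B. Each of the 3 calls depended on single libraries. That in Hep3B-IR cells was lost without parental replicate 2 (-0.87), that in Hep3B-CR cells without any of its 4 libraries (-0.59 to -0.92), and that in Huh7-CR cells without CR replicate 1 (-0.37), parental replicate 1 (-0.85) or parental replicate 2 (-0.54).

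Ordering the 8 groups of each gene by mean level gave 7 pairs of neighbors. The replicates overlapped in 2 of them for NKD1 and DKK1, in 3 for LGR5, AXIN2 and TCF7, in 4 for TBX3, GLUL and LEF1 and in 5 for RNF43.

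**Figure D3:**
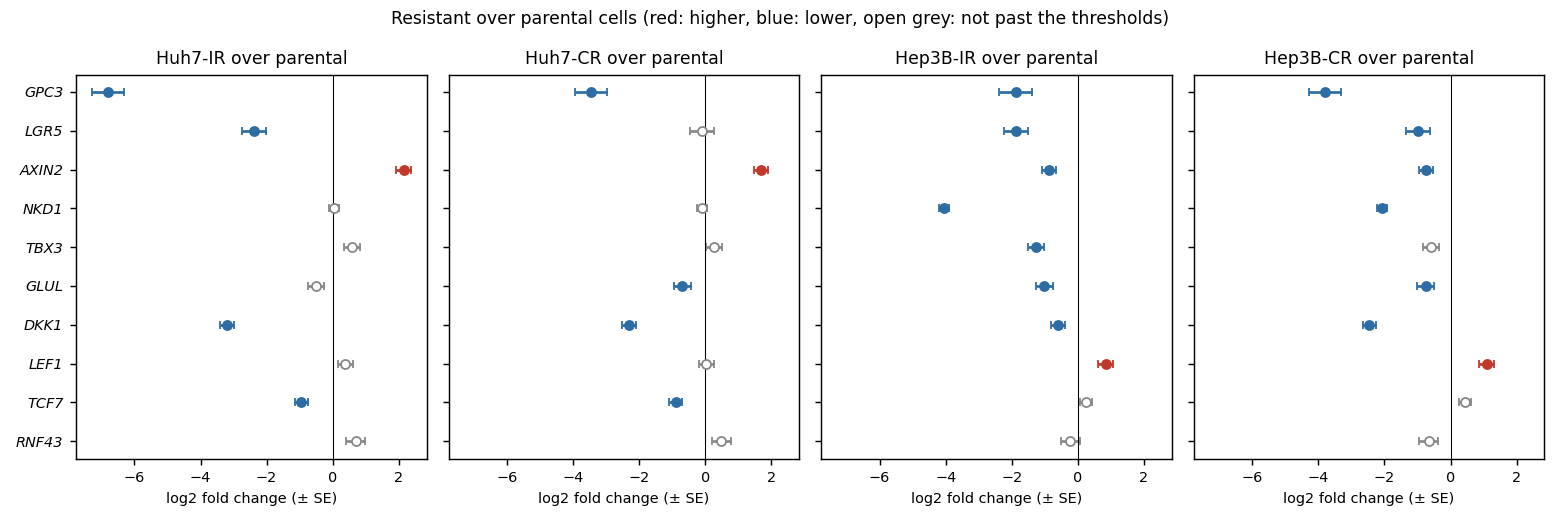
Log2 fold change of the 10 genes in the 4 resistant lines over parental cells, with bars for the SE, red and blue for genes called higher and lower, and open grey for genes that did not pass the thresholds. GPC3 has the lowest value in 3 of the panels, and in Hep3B-IR cells NKD1 has it at -4.05.

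DMSO cells were compared with parental cells to see how far the untreated groups differed. None of the 10 genes was called in either line (limma), where 3.46% of all genes were higher and 1.37% lower in Huh7 DMSO cells, and 1.07% and 0.513% in Hep3B DMSO cells. With an unadjusted p under 0.05 and the same minimum fold, 4 genes passed in Huh7 and 3 in Hep3B. edgeR called 1 gene in Huh7 and 0 in Hep3B, and DESeq2 called 3 and 1. Huh7 DMSO libraries had 579 and 777 CPM of GPC3, 416 and 456 CPM of GLUL and 220.1 and 215 CPM of DKK1, all above the parental libraries, and 4.36 and 3.99 CPM of LGR5, below them. Hep3B DMSO libraries had 874 and 949.8 CPM of GPC3, 71.7 and 91.9 CPM of LGR5 and 528 and 698 CPM of GLUL, all above the parental libraries. Within Hep3B, the largest log2 differences over parental were 1.10 for LGR5 (SE 0.36), 0.99 for GLUL (SE 0.25) and 0.98 for GPC3 (SE 0.49). Within Huh7 they were -0.95 for LGR5 (SE 0.36) and -0.80 for AXIN2 (SE 0.22). Summed hepatocyte markers were also higher in DMSO than in parental libraries, at 22683 and 27762 against 10710.4 and 16251 CPM in Huh7, and at 30256 and 36145 against 17152 and 21248 CPM in Hep3B. Their part in these differences was not tested.

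The parental lines differed in most of these genes before any selection. Huh7 parental cells had 6 of the 10 genes lower and 1 higher than Hep3B parental cells, where 23.7% of all genes were lower and 18.9% higher. NKD1, DKK1, LGR5, TCF7, RNF43 and LEF1 were lower in Huh7, at log2 differences of -4.14, -2.93, -1.94, -1.75, -1.35 and -1.30. Since NKD1 and LEF1 were tested only because they are expressed in Hep3B, their 2 calls do not count beside the share of all genes, and 4 of the other 8 genes were lower. TBX3 was higher by 0.86, a call that was lost without Hep3B parental replicate 1 (0.75) or Huh7 parental replicate 1 (0.76). GPC3 (0.08, SE 0.49), AXIN2 (0.08, SE 0.22) and GLUL (-0.17, SE 0.25) did not differ beyond their error.

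The regimens by which resistance was raised were also compared within each line. In Huh7, IR cells had lower GPC3 (log2 difference -3.35, adjusted p 0.00159), LGR5 (-2.26, adjusted p 0.00285) and DKK1 (-0.90, adjusted p 0.0142) than CR cells (limma), which is 3 of 10 genes, while 13.7% of all genes were called in either direction. DKK1 lost this call without either Huh7-CR library, at -0.80 and -0.999. In Hep3B, where 11.7% of all genes were called, IR cells had higher DKK1 (1.86, adjusted p 0.000161) and GPC3 (1.92, adjusted p 0.0233) and lower NKD1 (-1.99, adjusted p 1.08e-05) than CR cells (limma). GPC3 lost its call there without Hep3B-CR replicate 1 (1.43) or Hep3B-IR replicate 2 (0.91). GPC3 and DKK1 were therefore lowest in IR cells of Huh7 and in CR cells of Hep3B. CPM values of LGR5 in Hep3B overlapped between IR and CR cells.

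The average change over both resistant lines of a background was then compared between Huh7 and Hep3B. It differed for 8 of the 10 genes, 4 in each direction, where 29.4% of all genes differed. NKD1 and LEF1, tested only because they are expressed in Hep3B, do not count beside that share. The calls left are those of AXIN2, TBX3, RNF43, TCF7, DKK1 and GPC3. AXIN2 changed by 1.91 in Huh7 and by -0.81 in Hep3B, a difference of 2.72 (SE 0.27, adjusted p 2.06e-05, limma). TBX3 (0.42 and -0.92) and RNF43 (0.58 and -0.45) also had mean changes of opposite sign, with differences of 1.35 (adjusted p 0.00501) and 1.03 (adjusted p 0.042, limma), and that of RNF43 lost its call without any of 8 of the 12 libraries, at 0.88 to 1.18. TCF7 had the reverse pattern, at -0.92 in Huh7 and 0.34 in Hep3B. DKK1 and GPC3 fell further in Huh7 (-2.76 and -5.12) than in Hep3B (-1.52 and -2.85), with differences of -1.23 (adjusted p 0.00296) and -2.28 (adjusted p 0.0124, limma). The difference for GPC3 lost its call without Hep3B parental replicate 1 (-2.04) or Huh7 parental replicate 2 (-2.20). Differences for NKD1 (3.03) and LEF1 (-0.75) were measured against Huh7 levels near 0, and that of LEF1 turned to 0.35 with edgeR and 0.39 with DESeq2 and lost its call without any of 9 of the 12 libraries, at -0.59 to -0.92. LGR5 and GLUL did not differ between lines beyond their error, at 0.19 (SE 0.45) and 0.29 (SE 0.31), and against DMSO cells that of LGR5 was 2.24 and passed the thresholds. Without Hep3B parental replicate 1 or Huh7 parental replicate 2, 5 of the 10 genes differed.

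**Figure D4:**
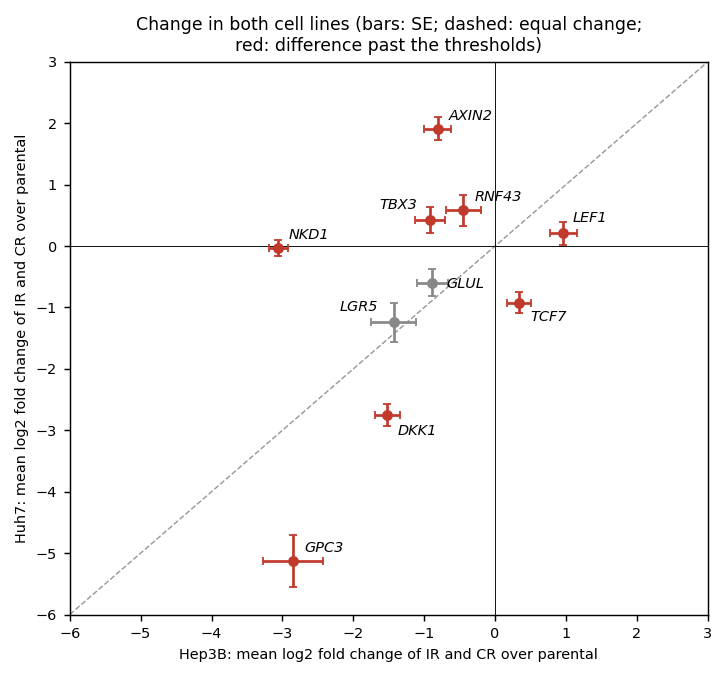
Mean log2 fold change of IR and CR over parental cells in Huh7 against that in Hep3B, with bars for the SE, a dashed line for equal change, and red for genes whose difference between lines passed the thresholds. AXIN2 is at 1.91 in Huh7 and -0.81 in Hep3B, and GPC3 and DKK1 lie below the dashed line on the side of decreases in both lines.

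Other genes of the pathway were taken from 10 lists of 96 genes, of which 58 passed the filter on low levels. Among these, WNT2B, WNT5B, WNT7B, FZD9, ROR1 and EPHB2 passed through resistant libraries alone, as did 6.12% of all genes tested, which favors higher calls there, and counts without these 6 genes are given beside the others. FZD9 and EPHB2 were named after their values were seen. In IR cells 26 were higher and 8 lower for Huh7, and 17 and 10 for Hep3B. In CR cells the counts were 20 and 5 for Huh7, and 18 and 8 for Hep3B. Of the 52 genes left without those 6, the counts of higher genes were 21, 17, 13 and 14, and those of lower genes stayed at 8, 5, 10 and 8. Among all genes 31.1%, 20.9%, 15.7% and 20.0% were higher and 17.8%, 13.6%, 11.4% and 12.3% lower, and the counts of each list below are to be read against these shares. The median log2 fold change of the 58 pathway genes, those 6 included, was 0.53, 0.28, 0.13 and 0.31. That of all genes tested was 0.19, 0.07, 0.06 and 0.11. The Hep3B counts of called genes, 27 in IR and 26 in CR cells, were 14 without IR replicate 1, 17 and 16 without parental replicates 1 and 2, and 16 without CR replicate 1.

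CTNNB1, the gene of beta-catenin itself, was 536 and 645 CPM in Hep3B parental, 253 and 265 CPM in Hep3B-IR and 259 and 238 CPM in Hep3B-CR libraries. It fell in both, at log2 fold changes of -1.18 and -1.24 (SE 0.15, adjusted p 0.000103 and 6.24e-05, limma). Huh7 libraries all had between 704 and 978 CPM, without a call. Of the 13 genes for Dishevelled and the destruction complex, 6, 3, 2 and 3 were higher and 1, 0, 2 and 2 lower. Among those of Hep3B, AMER1, an adaptor of APC, was lower (-1.22 and -1.06), and the scaffold AXIN1 was higher (0.59 and 1.16). The AXIN1 value in IR cells was at the minimum fold and lost its call with edgeR (0.56), DESeq2 (0.55), TMM factors (0.53), DMSO cells as reference (0.22) and without IR replicate 1 (0.47), parental replicate 1 (0.61) or parental replicate 2 (0.57). For Huh7, TNKS2, a tankyrase that marks axins for degradation, and BTRC, the ubiquitin ligase subunit that recognizes beta-catenin, were higher (1.35 and 0.86, and 1.09 and 1.09).

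Of 19 Wnt ligands only 4 passed the filter, 3 of them (WNT2B, WNT5B and WNT7B) through resistant libraries alone, so the filter favored higher calls and their levels are a description. WNT3, the other one, was called higher in both resistant Huh7 lines and in neither of Hep3B. WNT5B, a ligand mostly known for signaling without beta-catenin, rose from 0.116 and 0.0536 CPM in Huh7 parental to 6.68 and 3.45 CPM in IR and 3.17 and 2.11 CPM in CR libraries. WNT2B went from 0.495 and 0.174 CPM to 6.80 and 2.90, and 3.09 and 2.67 CPM. In Hep3B, WNT7B rose from 0.390 and 0.338 CPM to 5.69 and 5.12 CPM in IR and 9.97 and 12.5 CPM in CR libraries. WNT5B was at most 0.164 CPM in untreated Hep3B libraries and between 0.583 and 2.57 CPM in the resistant ones. PORCN, the enzyme that acylates Wnt proteins, was 2.18 and 1.75 CPM in Huh7 parental, 27.0 and 26.0 CPM in IR and 13.9 and 11.6 CPM in CR libraries. WLS, the carrier of Wnt proteins to the cell surface, was higher in both lines, at log2 fold changes of 0.61 and 0.66 in Huh7 and 1.38 and 1.29 in Hep3B. In Huh7 it fell under the minimum fold with edgeR (0.42 and 0.58) and TMM factors (0.41 and 0.57), in IR cells also with DMSO cells as reference (0.53), and in CR cells it lost its call without CR replicate 1 (0.59). In Hep3B DMSO libraries WLS was lower than in parental ones, at 17.5 and 17.3 against 54.9 and 39.9 CPM (log2 fold change -1.38, adjusted p 0.00209, limma). The WNT3 values in Huh7 were 1.17 and 1.24 but overlapped with the DMSO libraries, against which the values were 0.16 and 0.23.

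Of 14 receptors tested, 4, 3, 4 and 3 were higher and 6, 4, 4 and 4 lower, and without FZD9 and ROR1 the higher ones were 2, 2, 3 and 2 of 12. ROR1, a Wnt5-binding receptor tyrosine kinase that passed the filter through resistant libraries alone, was 0.378 and 0.375 CPM in Huh7 parental and between 39.4 and 55.5 CPM in the 4 resistant libraries. Hep3B libraries had 0.0942 and 0.169 CPM in parental and between 2.62 and 10.6 CPM in resistant libraries. FZD5, a Frizzled receptor, fell in Huh7 from 239 and 235 CPM to between 23.2 and 40.7 CPM (-3.23 and -2.86), whereas FZD2 rose (2.65 and 1.75). LGR4, the relative of LGR5, and RYK, a further Wnt receptor, were lower in Hep3B (-0.80 and -1.50, and -1.09 and -1.03). The LGR4 value in Hep3B-IR cells lost its call when any of its 4 libraries was left out (-0.71 to -0.90).

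Of 14 inhibitors other than the 10 genes only 4 were tested, of which 2, 2, 3 and 2 were called higher in the resistant lines. DKK3, a secreted relative of DKK1 that does not share its mode of action, was 22.2 and 17.1 CPM in Huh7 parental and between 266 and 473 CPM in resistant libraries (4.40 and 3.89). In Hep3B it was also higher (1.59 and 2.59), although in IR cells the call was lost without parental replicate 2 (1.45). KREMEN1, a receptor of DKK1, was higher in Hep3B (1.32 and 1.13). Against DMSO cells its values were 0.68 and 0.48 and did not pass, and its calls were also lost without parental replicate 2 (1.15 and 0.96), IR replicate 1 (1.28) or either CR library (1.19 and 1.06).

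Of 6 nuclear partners, 3, 3, 1 and 0 were higher and 0, 1, 2 and 1 lower. PYGO1, a coactivator of beta-catenin, went from 0.0291 and 0 CPM in Huh7 parental to 17.9 and 5.36 CPM in IR and 3.09 and 2.28 CPM in CR libraries, and BCL9L rose as well (2.17 and 1.46). The PYGO1 value of CR cells lost its call with 4 CPM added before the log (0.73). TCF7L1, a repressive TCF factor, was called (1.43 and 0.82), but its CR value was lost without either CR library (0.83 and 0.82) and was 0.39 without parental replicate 2, and against DMSO cells the values were 0.56 and -0.05. In Hep3B, BCL9 fell from 52.2 and 47.2 CPM to 13.9 and 13.4 CPM in IR and 21.1 and 24.6 CPM in CR libraries.

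Of 8 other target genes tested, 2, 1, 0 and 3 were higher and 0, 0, 1 and 0 lower, where 1 of the 3 in Hep3B-CR cells was EPHB2. CD44, a hyaluronan receptor, rose in Huh7 from 14.6 and 1.41 CPM to 303 and 135 CPM in IR and 197 and 90.9 CPM in CR libraries, and parental replicate 1 was far above replicate 2. Of the 2 pericentral targets tested, only OAT, an enzyme of ornithine metabolism, was called over parental cells in resistant lines, in Hep3B (1.05 and 0.82). Its CR call was lost without either CR library (0.82 and 0.81) or parental replicate 1 (0.46), with edgeR (0.67), with DESeq2 (0.64) and against DMSO cells (0.49). Of 5 other glypicans, 3, 3, 2 and 2 were higher and 1, 0, 1 and 1 lower. GPC1 was 0.931 and 0.335 CPM in Huh7 parental and between 69.6 and 83.6 CPM in the resistant libraries, at log2 fold changes of 5.70 and 5.49 (SE 0.20). GPC4 was higher in both lines (3.21 and 2.56 in Huh7, 1.51 and 1.28 in Hep3B), but its Hep3B calls were lost without parental replicate 2 (1.16 and 0.92), IR replicate 1 (1.26) or CR replicate 1 (0.86). GPC5 was lower in Hep3B (-0.94 and -1.96), and its IR call was lost without IR replicate 1 (-0.57) or parental replicate 1 (-0.86).

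**Figure D5:**
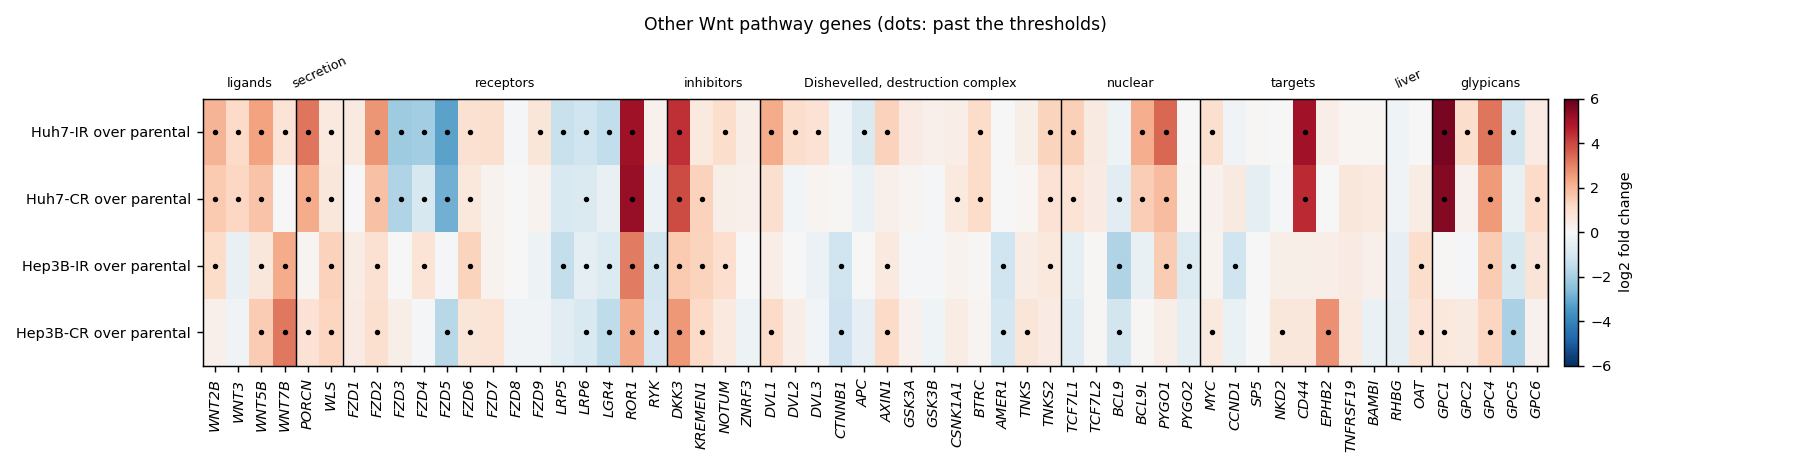
Log2 fold change over parental cells of the 58 other pathway genes tested, in columns grouped by role, with dots for changes that passed the thresholds. ROR1, DKK3, CD44 and GPC1 reach 4 or more in Huh7-IR cells, and FZD5 is lowest there at -3.23.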

How the data were processed

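The study's methods name a stranded total RNA kit for the libraries and also state that poly-A+ RNA was sequenced. How the RNA was selected is therefore not clear. Groups and replicate numbers of the 16 libraries were taken from the sample titles. Per the study's methods, the authors mapped single-end reads to hg19 with STAR, keeping unique hits, and counted them over RefSeq exons; whether counting used strand is not given in the sources used here. They deposited CPM for 26258 genes by gene ID (26111 matched to a symbol). All values were whole reads within 0.05 reads, so these were recovered by the CPM step. The study's methods state biological triplicates, whereas 2 replicates per group were analysed here. The labels do not tie them to separate cultures, so p-values measure only the spread between these samples, which may be technical. The main fit took the same spread of a gene for all groups, which may understate that of Huh7 DMSO and Huh7-IR cells.

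limma 3.58.1 (R 4.3.3) was fitted with a mean-variance trend to log2(CPM + 1) of all libraries in 8 groups. It was also run on simulated data with an equal spread in all groups, which does not cover the unequal spread of these groups. Alternatives were edgeR 4.0.16 and DESeq2 1.42.0 on the recovered reads, TMM factors, pseudocounts of 0.25 and 4 CPM, no filter, each line alone, other call rules, a replicate block, DMSO cells as reference, and leaving out each library. A lone remaining library was assumed to vary like the other groups. The labels do not say whether a shared replicate number pairs samples, and the main fit did not pair them. The 10 genes and the lists were chosen with earlier results of these data known. Named besides the 10 genes and CTNNB1 were, per list and line, up to 3 genes with the largest mean change among those with calls in 1 direction in both resistant lines, and the 5 genes most like GPC3. Gene coordinates are from GENCODE on GRCh37, and promoters from RefSeq on GRCh38.p14. Floors of 3 reads cover counting error only.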

Additional observations from a re-analysis of the deposited data

Results flagged for a closer look

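The change of resistant over parental cells differed between Huh7 and Hep3B, by limma's test of the difference itself, for 8 of the 10 genes, and for 29.4% of all genes tested. Without Hep3B parental replicate 1 or Huh7 parental replicate 2 it did so for 5 of the 10. The log2 difference (Huh7 minus Hep3B) was 2.72 for AXIN2 and -1.26 for TCF7, whose mean changes had opposite signs in the lines, as had those of TBX3 (1.35) and RNF43 (1.03). For GPC3 (-2.28) and DKK1 (-1.23) the decrease was larger in Huh7. The GPC3 difference lost its call in both of these cases (-2.04 and -2.20), and that of RNF43 under 11 of 22 alternatives. For NKD1 (3.03) and LEF1 (-0.75) the Huh7 libraries lay near 0. Both genes passed the filter through Hep3B alone, so their calls do not count beside the share of all genes. The LEF1 difference reversed with edgeR and DESeq2 on the reads and lost its call under 15 other alternatives.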

How the results depend on the processing

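Over 100 values of the 10 genes (10 comparisons), 1352 of 1510 recomputed values kept their direction and side of the thresholds, 80 lost and 50 gained a call, and 28 reversed. Of 46 called values, 27 kept their call under every alternative, and 1 reversed: the LEF1 difference between lines, 0.35 with edgeR and 0.39 with DESeq2. The other reversals concerned values that were not called. With DMSO cells as reference these were LGR5 in Huh7-CR (0.83), LEF1 in Huh7-CR (-0.12) and NKD1 in Huh7-IR (-0.053); for the LGR5 difference between lines they were -0.31 with edgeR, -0.29 with DESeq2 and -0.060 with 0.25 CPM.

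Called genes of the 10 fell from 5 to 3 in Huh7-CR with 4 CPM. In Huh7 DMSO cells, 0 became 1 with edgeR, TMM factors, 0.25 CPM or the replicate block, 3 with DESeq2 and 4 with unadjusted p. In Hep3B DMSO cells, 0 became 1 with DESeq2 or the line alone and 3 with unadjusted p, and Hep3B IR against CR went from 3 to 5 with unadjusted p. Leaving out libraries gave 4 to 6 in Hep3B-IR, 4 to 5 in Hep3B-CR, 0 to 1 in Huh7 DMSO and 5 to 8 for the difference between lines.

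Small differences that were not called also changed sign when single libraries were left out. For LGR5 the range was -0.45 to 0.22 in Huh7-CR and -0.11 to 0.49 between lines. In DMSO cells it was -0.076 to 0.25 for NKD1 and -0.16 to 0.38 for TBX3 in Huh7, and -0.053 to 0.16 for TBX3 and -0.33 to 0.033 for DKK1 in Hep3B. Between parental lines it was -0.16 to 0.32 for GPC3 and -0.035 to 0.20 for AXIN2. Between IR and CR it was -0.025 to 0.65 for TBX3, -0.16 to 0.53 for GLUL, -0.23 to 0.12 for TCF7 and -0.31 to 0.74 for RNF43 in Huh7, and -0.54 to 0.038 for LEF1 and -0.40 to 0.0079 for TCF7 in Hep3B.

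Of 66 values of the named pathway genes, 48 kept direction and call throughout, and only TCF7L1 in Huh7-CR (-0.046 against DMSO) and the CTNNB1 value of 0.05 in Huh7-CR, which was not called, reversed (edgeR -0.052, DESeq2 -0.041, TMM factors -0.050, and leaving out libraries -0.016 to 0.11). The share of higher genes among those called was 63.6% in Huh7-IR and between 52.8% (TMM) and 54.0% (edgeR) under the other scalings, was 60.3% for Huh7-IR against CR and became 46.6% to 47.5%, and went from 67.5% to 46.8% by edgeR in Hep3B DMSO cells. Over all genes, Huh7 DMSO cells had 726 called, 1833 with DESeq2, 382 without the filter and 2171 with unadjusted p, and Hep3B DMSO cells had 237, with 77 by edgeR, 544 by DESeq2 and 1210 by unadjusted p; unadjusted p also raised IR against CR from 2051 to 3148 in Huh7 and from 1764 to 2671 in Hep3B.

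Deviations of same-numbered replicates correlated between -0.22 and 0.44 over 28 pairs of groups, 13 of them over 0.1. The labels do not say what a shared number stands for, and the source of these correlations was not tested. The replicate block gave 846 in place of 726 genes for Huh7 DMSO cells and 7350 in place of 7336 for Huh7-IR cells. Among the 10 genes it ended the calls of LGR5 in Hep3B-CR and of LEF1 between lines and added DKK1 in Huh7 DMSO and RNF43 in Huh7-IR cells.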
